A study of Mus musculus with 6 samples.

Results

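The genes described here are 9 of the 16862 genes in the deposited table, chosen by symbol: the hormone receptors Lhcgr, Prlr, Agtr1a and Mc2r, the Mc2r partner Mrap, the enzymes Akr1b7, Cyp21a1 and Ren1, and the sterol carrier Gramd1b. All 9 had a row and all 9 passed the filter on low values (at least 10 in at least 3 libraries). RNA sequencing was done on male gonads of C57BL/6 mouse embryos dissected at E13.5, counted in days of gestation. The L/H-Pgds knockout (KO) group held 3 libraries, numbered 5, 7 and 8 in the labels, from embryos labelled as knockouts of both the lipocalin-type and the haematopoietic prostaglandin D synthase. The wild-type (WT) group held 3 libraries, numbered 1, 3 and 4. The labels describe the embryos as littermates but do not say which shared a litter, which exons were deleted, or which embryo gave which library, and they name no Cre line or transgene. The comparison asks which genes differ between fetal testes of these labelled genotypes.

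Fetal Leydig cells are the steroid-making cells between the cords of the fetal testis. They share their early origin with the adrenal cortex, and in the mouse a subset of interstitial cells of the fetal testis carries genes of the adrenal cortex, Cyp21a1 and the ACTH receptor Mc2r among them. Lhcgr and Mc2r raise cyclic AMP when pituitary hormone binds, Mc2r reaches the cell surface only with Mrap, Agtr1a responds to the angiotensin II that renin starts to make, and Prlr signals through the kinase Jak2. In a bulk gonad library, fewer cells of a type and less RNA per cell cannot be told apart.

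Promoter windows were taken for 4 of the 9 genes, matched by symbol in RefSeq (GRCm38.p6). Each window runs from 250 bases before to 50 bases after a start. No window was used for the other genes, which does not show that RefSeq holds none for them. Windows are printed for Akr1b7 and Ren1, which were both lower in KO. Windows are also printed for Prlr, which was higher, and for Lhcgr, which did not pass the test. Capitals mark matches to the 4 motifs searched on both strands: AGGTCA, which the steroidogenic factor SF-1 (Nr5a1) binds, TGACG, the core of the cyclic AMP response element, AGATAA, bound by GATA factors, and TATAAA, the TATA box. None of the 4 motifs contains another, and overlapping matches were allowed. The windows are chr6:34412112-34412411, plus strand for Akr1b7, chr1:133350424-133350723, plus strand for Ren1, chr15:10223656-10223955, plus strand for the second of 3 Prlr starts, and chr17:88791965-88792264, minus strand for Lhcgr.
Akr1b7: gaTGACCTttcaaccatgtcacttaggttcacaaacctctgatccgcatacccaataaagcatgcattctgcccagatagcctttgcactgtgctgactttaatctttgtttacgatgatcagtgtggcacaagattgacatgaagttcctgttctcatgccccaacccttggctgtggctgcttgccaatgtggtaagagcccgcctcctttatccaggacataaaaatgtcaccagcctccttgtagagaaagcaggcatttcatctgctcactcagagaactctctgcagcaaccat
Ren1: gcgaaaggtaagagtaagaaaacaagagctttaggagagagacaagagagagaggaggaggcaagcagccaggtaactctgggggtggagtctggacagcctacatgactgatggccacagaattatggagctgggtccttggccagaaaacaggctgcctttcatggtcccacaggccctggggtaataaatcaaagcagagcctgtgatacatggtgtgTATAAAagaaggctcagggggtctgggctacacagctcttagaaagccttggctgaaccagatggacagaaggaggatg
Prlr: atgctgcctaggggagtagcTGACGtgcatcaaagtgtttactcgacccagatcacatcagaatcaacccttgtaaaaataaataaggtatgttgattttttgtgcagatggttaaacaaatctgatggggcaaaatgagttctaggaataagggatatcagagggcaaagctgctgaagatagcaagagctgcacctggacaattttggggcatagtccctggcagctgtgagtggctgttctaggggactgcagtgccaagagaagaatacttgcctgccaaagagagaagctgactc
Lhcgr: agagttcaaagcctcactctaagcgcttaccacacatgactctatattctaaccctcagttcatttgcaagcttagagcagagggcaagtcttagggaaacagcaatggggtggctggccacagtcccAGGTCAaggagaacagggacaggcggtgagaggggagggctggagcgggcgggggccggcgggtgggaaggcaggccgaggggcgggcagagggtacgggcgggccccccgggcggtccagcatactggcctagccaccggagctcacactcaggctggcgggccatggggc
AGGTCA was found in the Lhcgr window, starting 122 bases before the start, and, on the other strand, in the Akr1b7 window, starting 248 bases before it. Of 32817 promoter windows of the same length, 16.3% hold it. TATAAA was found 29 bases before the start of Ren1 (13.6% of windows hold it), and TGACG in the Prlr window shown, 230 bases before the start (20.8%). The window shown was the only Prlr window with a match to any of the motifs. AGATAA was in none of the 6 windows of these 4 genes, the other 2 Prlr windows included (11.2% of all windows hold it). A match is only a match of letters.

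Summed normalised values lay between 21657342 and 21846849 in KO libraries and between 22881124 and 23734462 in WT libraries. The check on genotype was Ptgds, the gene of L-Pgds, with 15.2, 4.0 and 2.94 in KO against 6560.1, 8137 and 8712 in WT. Hpgds, the gene of H-Pgds, was higher in every KO library, with 92.9 ± 9.32 in KO and 49.2 ± 5.21 in WT (SD, n = 3 each). It passed limma's test in the direction opposite to a loss of its transcript (log2 0.90, adjusted p = 0.00853), and with the length and GC trend removed it stood at 0.60 (adjusted p = 0.0917). Since the deleted exons are not stated, this level neither bears out the Hpgds part of the label nor contradicts a deletion inside the gene. Of 15116 genes tested, 34.3% passed the threshold (limma's moderated test with Benjamini-Hochberg adjustment, adjusted p under 0.05), 17.3% higher and 17.0% lower in KO. Scaling to equal totals moved the median log2 change of all genes from -0.03 to 0.07 and the split from 2609 higher and 2571 lower to 3507 and 1687. WT library 1 stood apart from the other libraries: its log2 values had a mean correlation across genes of 0.975 with the other WT libraries, the lowest of the 6 libraries.

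Mrap, Akr1b7 and Ren1 fell in KO gonads and Prlr rose, while Lhcgr, Agtr1a, Mc2r, Cyp21a1 and Gramd1b did not pass the test. With the trend of the values on transcript length and GC content removed in each library, these 4 calls ended, Mrap going from a log2 change of -0.78 to -0.23 and Prlr from 0.41 to -0.26. Thus, without that removal, 4 of 9 genes passed (background 34.3%), 3 of them lower (background 17.0%) and 1 higher (background 17.3%). The median log2 change of the 9 genes was -0.27, and that of all genes tested was -0.03. The KO and WT libraries did not overlap in 7 of the 9 genes (background 50.3%), 5 lower in KO (background 25.6%) and 2 higher (background 24.7%). All values below are upper-quartile normalised pseudo-counts, given for KO libraries 5, 7 and 8 and then for WT libraries 1, 3 and 4, and log2 changes are KO minus WT on the log2(value + 1) scale.

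**Figure D1:**
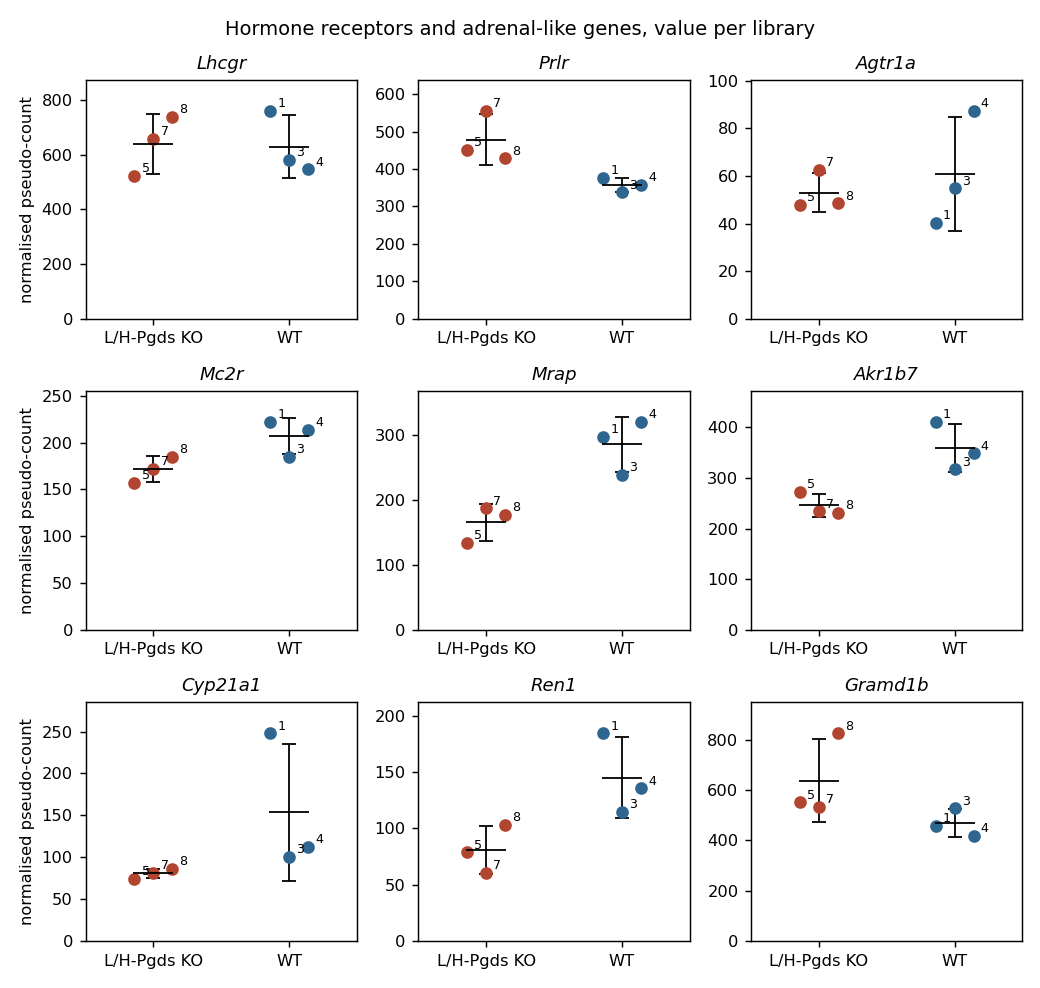
Normalised pseudo-counts of the 9 genes in each library, with KO on the left and WT on the right of each panel; numbers beside points are library numbers, and horizontal lines with bars are the mean ± SD of 3 libraries. Mrap, Akr1b7 and Ren1 are lower in every KO library than in any WT library, and WT library 1 is the highest for Cyp21a1, at 248.

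Among the receptors, Lhcgr did not pass the test, and its mean was close in both genotypes (639 ± 109 in KO and 629 ± 115 in WT, SD, n = 3 each). Lhcgr, the receptor for luteinising hormone on Leydig cells (chromosome 17, 89140889 to 89191316 in mm9), had 521, 657 and 738 in KO against 759.8, 581 and 546 in WT. The groups overlapped, with WT library 1 highest and KO library 5 lowest. The log2 change was 0.02 (SE 0.16, 95% interval -0.33 to 0.38, limma adjusted p = 0.922).

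Prlr, the prolactin receptor, rose in KO gonads. It lies on chromosome 15 (10106993 to 10278935) and had 451, 555 and 428 in KO against 376, 337 and 357 in WT. Every KO library was above every WT library, and the KO libraries were more spread out (478 ± 67.8 in KO and 357 ± 19.5 in WT, SD, n = 3 each). The log2 change was 0.41 (limma SE 0.13, adjusted p = 0.0338), and the ratio of the means was 1.34. The call ended without KO library 5 (adjusted p = 0.0709), KO library 7 (0.0986), WT library 3 (0.0849) or WT library 4 (0.0891).

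Agtr1a, the angiotensin II receptor of type 1a (chromosome 13, 30428225 to 30474736), did not pass the test. It had 48.0, 62.5 and 48.5 in KO against 40.3, 54.9 and 87.4 in WT. WT libraries 1 and 4 were the lowest and the highest of all, so the KO values lay inside the WT range. The log2 change was -0.13 (limma SE 0.30, adjusted p = 0.749), and it was 0.16 without WT library 4. Its copy Agtr1b was below the filter, with values between 0.357 and 5.23 over all libraries.

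Mc2r and Mrap, the receptor for the pituitary hormone ACTH and the small protein that carries it to the cell surface, were both lower on average in KO, and Mrap alone passed the test. Mc2r (chromosome 18, 68566561 to 68588913) had 157, 172 and 185.0 in KO against 222, 185.2 and 214 in WT. The groups did not overlap, but KO library 8 and WT library 3 were almost equal. The log2 change of Mc2r was -0.27 (SE 0.15, 95% interval -0.61 to 0.07, limma adjusted p = 0.193). Mrap (chromosome 16, 90738569 to 90750021) had 134, 187 and 177 in KO against 298, 239 and 321 in WT. The highest KO library was below the lowest WT library. Mrap averaged 166 ± 28.5 in KO and 286 ± 41.8 in WT (SD, n = 3 each), or a log2 change of -0.78 (limma SE 0.18, adjusted p = 0.00836), and it passed with each library left out in turn (adjusted p up to 0.0437) but not with the length and GC trend removed (log2 -0.23, adjusted p = 0.37). Over the 6 libraries the log2 values of Mc2r and Mrap had a Pearson r of 0.94, and 0.85 with the genotype means removed, as a description of 6 libraries that share their normalisation. The difference between the changes of Mc2r and Mrap was not tested.

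Akr1b7 fell in KO gonads. It encodes an aldo-keto reductase of the adrenal cortex and vas deferens that responds to ACTH in the mouse adrenal and can make prostaglandin F2α. Akr1b7 (chromosome 6, 34362362 to 34373137, the promoter printed above) had 272, 234 and 231 in KO against 411, 317 and 349 in WT. The groups did not overlap, and the KO libraries were close to each other. It averaged 246 ± 23.0 in KO and 359 ± 47.5 in WT (SD, n = 3 each), or a log2 change of -0.54 (limma SE 0.14, adjusted p = 0.0164), which was -0.56 with an adjusted p of 0.0505 without WT library 4. The related genes Akr1b8 and Akr1b10 lie next to it, so reads shared by these copies are uncertain.

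Cyp21a1, the 21-hydroxylase that adrenal cells need for glucocorticoids and mineralocorticoids, was low in all KO libraries and did not pass the test. Cyp21a1 (chromosome 17, 34938293 to 34941371) had 74.5, 81.0 and 86.1 in KO against 248, 100.3 and 112 in WT. The groups did not overlap, and WT library 1 held more than any other library. The log2 change was -0.80 (limma SE 0.31, adjusted p = 0.0663), and without WT library 1 it was -0.40 (SE 0.21, adjusted p = 0.164). WT library 1 was also the highest for Cyp11b1, the 11-beta-hydroxylase of the adrenal cortex, named after its values were seen, with 75.6, 105 and 132 in KO against 290.0, 67.3 and 92.1 in WT. Its log2 change was -0.26 (SE 0.45, adjusted p = 0.683), and 0.37 without WT library 1. The mouse genome holds a near-identical pseudogene of Cyp21a1, so its reads are uncertain.

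Ren1, which encodes renin, the protease that cuts angiotensinogen, fell in KO gonads. It had 78.6, 60.5 and 103 in KO against 184, 115 and 135 in WT. The groups did not overlap, with KO library 7 lowest and WT library 1 highest. The means were 80.7 ± 21.4 in KO and 145 ± 35.8 in WT (SD, n = 3 each), or a log2 change of -0.84 (limma SE 0.25, adjusted p = 0.0254). The call ended without WT library 1 (adjusted p = 0.0547), WT library 4 (0.065), KO library 5 (0.0724) or KO library 7 (0.086). The table places Ren1 on chromosome 1 from 135255651 to 135255659, a span of 9 bases, and Ren2, a copy of renin that some mouse strains carry, from 135247143 to 135247250, a span of 108 bases. Such a span is far shorter than the renin transcript of 1592 nt, and the table gives under 100 bases to 74 of its rows. Where the reads of Ren1 were counted is not given in the sources used here, so its level cannot be set beside those of other genes. Ren2 was listed at 6.10 to 10.9 in all libraries, below the filter, and the sum of Ren1 and Ren2 had a log2 change of -0.79 (SE 0.24, adjusted p = 0.0292).

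Gramd1b, also called Aster-B, carries cholesterol away from the plasma membrane inside cells, steroid-making cells among them. Gramd1b (chromosome 9, 40105492 to 40263349) had 551, 533 and 826 in KO against 457, 528 and 418 in WT. Every KO library was above every WT library, with KO library 7 and WT library 3 almost equal and KO library 8 far above the rest. The log2 change was 0.42 (limma SE 0.17, adjusted p = 0.0805), and 0.22 without KO library 8 (adjusted p = 0.255). With values scaled to equal totals it passed, with a log2 change of 0.52 (adjusted p = 0.0374).

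**Figure D2:**
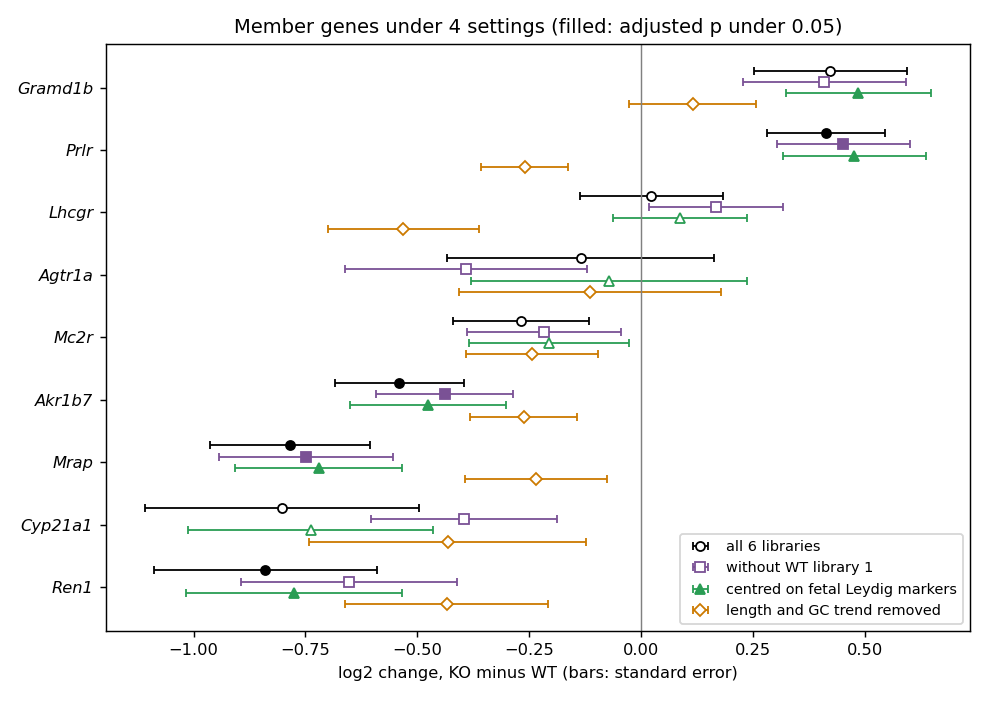
Log2 change (KO minus WT, horizontal axis) of the 9 genes with all 6 libraries, without WT library 1, with each library centred on its fetal Leydig cell markers, and with the length and GC trend removed; bars are standard errors and filled symbols have an adjusted p under 0.05. Prlr stands at 0.41 with all libraries and at -0.26 with the trend removed, where no gene passes.

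Levels per kilobase of the longest protein-coding transcript put Mrap and Akr1b7 first. In KO gonads, Akr1b7 had 192 ± 17.98 and Mrap 166 ± 28.5 per kb, followed by Mc2r (105 ± 8.54), Lhcgr (93.5 ± 16.0), Gramd1b (85.1 ± 21.9), Prlr (48.3 ± 6.84), Cyp21a1 (39.1 ± 2.82) and Agtr1a (24.1 ± 3.75). In WT gonads, Mrap had 286 ± 41.8 and Akr1b7 280.3 ± 37.1 per kb, followed by Mc2r (127 ± 11.9), Lhcgr (92.1 ± 16.8), Cyp21a1 (74.6 ± 39.9), Gramd1b (62.4 ± 7.44), Prlr (36.1 ± 1.97) and Agtr1a (27.7 ± 11.0), all as mean ± SD over 3 libraries. Neighbours in this order whose ranges over the 3 libraries overlapped were Akr1b7 and Mrap in both genotypes, and Lhcgr with Mc2r and Gramd1b in KO. In WT they were Lhcgr with Cyp21a1, Cyp21a1 with Gramd1b, and Prlr with Agtr1a. Such ranges do not compare 1 gene with another within the same library, and differences between genes were not tested. The order of Cyp21a1 in WT rests on library 1, at 120.5 per kb.

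Direction of change and transcript length went together among the 9 genes, and over the whole table. Lhcgr (6828 nt), Gramd1b (7488 nt) and Prlr (9900 nt) lie in the longest of 5 groups of genes by length, where 45.5% of 2890 genes were higher in KO, 1.7% were lower and the median log2 change was 0.33. Mrap (1001 nt), Akr1b7 (1281 nt), Ren1 (1592 nt) and Mc2r (1631 nt) lie in the shortest group, where 46.5% of 2890 genes were lower, 0.657% were higher and the median log2 change was -0.42. Cyp21a1 (2058 nt) and Agtr1a (2199 nt) lie in the next group, where 23.8% were lower. Ren1 is placed by the length of its transcript, although where its reads were counted is not given. The same limit holds for its value with the trend removed.

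With the trend on length and GC content removed in each library, 0 of 9 genes passed limma's test, and 2 had an unadjusted p under 0.05, both lower. Prlr then had a log2 change of -0.26 (SE 0.10, adjusted p = 0.111) and Lhcgr one of -0.53 (SE 0.17, adjusted p = 0.071). Mrap was at -0.23 (adjusted p = 0.37), Akr1b7 at -0.26 (0.186), Ren1 at -0.43 (0.245) and Cyp21a1 at -0.43 (0.398). Mc2r moved little, to -0.24 (0.313). In all, 8 of the 9 values were below 0, and Gramd1b was above it at 0.12 (0.646). With WT library 1 left out as well, Cyp21a1 stood at -0.04 (limma adjusted p = 0.928) and Ren1 at -0.27 (0.473). Mrap was then at -0.23 (0.421) and Akr1b7 at -0.19 (0.373).

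**Figure D3:**
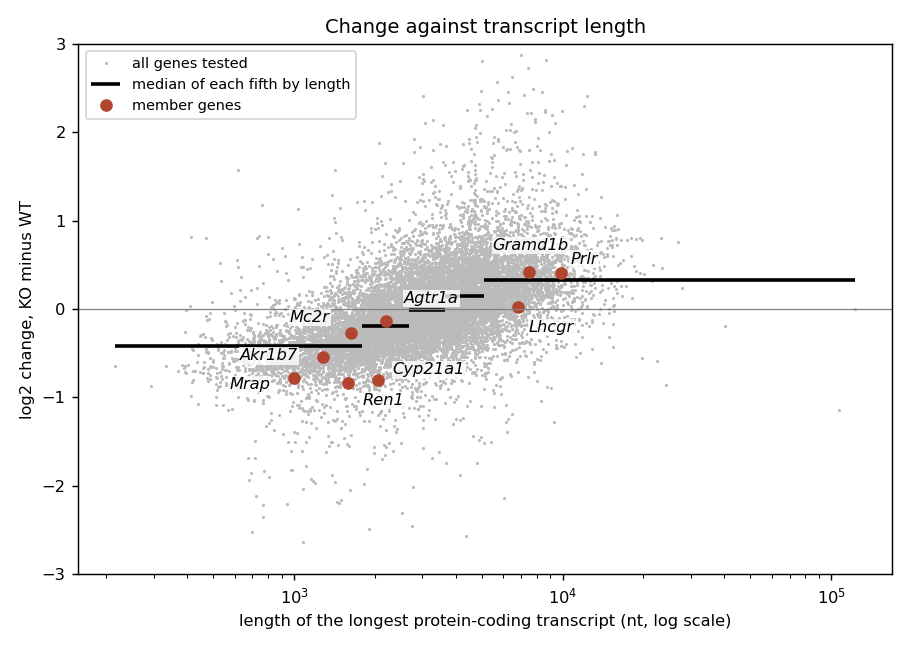
Log2 change (KO minus WT, vertical axis) against transcript length (nt, log axis) for 14449 genes tested (grey), with the median of each of 5 groups by length (black lines) and the 9 genes (red); 2 genes below -3 and 4 above 3 lie outside the axis. The 3 longest of the 9 transcripts lie at or above 0 and the 6 shorter ones below it.

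Other genes of these pathways went both ways. Over all genes tested, 17.3% were higher and 17.0% lower in KO, the background for the list counts below. In the renin-angiotensin list, 2 of 9 genes tested rose and 2 fell. Agt, the angiotensinogen that renin cuts, fell like Ren1, with 571 ± 44.7 in KO and 1045 ± 182 in WT (SD, n = 3 each), or a log2 change of -0.86 (limma SE 0.13, adjusted p = 0.00196). It passed with each library left out and with the trend removed (log2 -0.47, adjusted p = 0.0309). Agtrap, a protein that binds the angiotensin receptor, also fell (log2 -0.29, adjusted p = 0.0434). Its call ended in 5 of the 6 fits with 1 library left out (all but that without WT library 1, adjusted p up to 0.165) and held with the trend removed (log2 -0.33, adjusted p = 0.0424). The peptidases Lnpep and Enpep, which trim angiotensins, rose, with log2 changes of 0.73 and 0.40 (adjusted p = 0.0114 and 0.0143). With the trend removed both calls ended, with Lnpep at 0.07 (adjusted p = 0.816) and Enpep at 0.10 (0.466), and Enpep did not pass without WT library 1 (0.0505).

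Of 12 genes of prolactin and JAK-STAT signalling, 3 rose and 2 fell. These counts were 0 to 3 and 1 to 2 in the fits with 1 library left out, and none of the 5 calls held with the trend removed. Jak2, the kinase bound to Prlr, rose to 829 ± 85.8 in KO, against 627 ± 51.6 in WT (SD, n = 3 each), or a log2 change of 0.40 (limma SE 0.11, adjusted p = 0.0208), and Jak1 and the phosphatase Ptpn11 rose by 0.32 and 0.38. With the trend removed, Jak2 stood at -0.0041 (adjusted p = 0.979), Jak1 at 0.02 (0.895) and Ptpn11 at 0.17 (0.121). The call of Jak2 also ended without KO library 7 or WT library 4 (up to 0.0797), that of Jak1 without WT library 1 or 4 (up to 0.092) and that of Ptpn11 without KO library 5 or WT library 4 (up to 0.0637). Socs1, an inhibitor of these kinases, fell by 0.67 (adjusted p = 0.00713), and Socs3, a related inhibitor outside the rule for named genes and named after its value was seen, fell by 0.31 (adjusted p = 0.0472).

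In the list of gonadotropin receptor and cyclic AMP genes, 7 of 22 rose (background 17.3%) and 1 fell (background 17.0%), Prkaca, a catalytic subunit of protein kinase A named after its value was seen (log2 -0.37, adjusted p = 0.0139). These counts were 5 to 6 and 1 to 2 in the fits with 1 library left out. The 7 genes that rose have transcripts of 3802 to 8364 nt. Of all genes of 3646 to 5112 nt, 25.3% were higher in KO, and of longer ones 45.5%. Prkar2a, a regulatory subunit of protein kinase A, stood at 472 ± 54.5 in KO and 221 ± 50.02 in WT (SD, n = 3 each), or a log2 change of 1.11 (limma SE 0.18, adjusted p = 0.00228). Pde8a, a phosphodiesterase that breaks down cyclic AMP, rose by 0.82 and the adenylyl cyclase Adcy3 by 0.79, and these 3 genes passed with each library left out and with the trend removed. Creb1, a transcription factor that cyclic AMP activates, rose by 0.46 (adjusted p = 0.0106), and with the trend removed it stood at -0.19 (adjusted p = 0.0917). In the melanocortin list, 0 of 5 genes passed limma's test and 1 had an unadjusted p under 0.05: Pomc, the precursor of ACTH, with 104 ± 26.2 in KO and 149 ± 10.6 in WT (SD, n = 3 each; adjusted p = 0.0733). Mc4r, a melanocortin receptor of the brain, stood at 85.6 ± 31.0 in KO and 82.8 ± 25.2 in WT.

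Of 21 adrenal cortex steroid genes tested, 1 rose and 4 fell, with a median log2 change of -0.26, and these counts were 0 to 1 and 1 to 8 when single libraries were dropped. Npc2, a lysosomal cholesterol carrier, fell by 0.58 (SE 0.11, limma adjusted p = 0.00435), while its partner Npc1 rose by 0.37 (adjusted p = 0.0339). The electron donors Fdx1 and Por fell by 0.42 and 0.35 (adjusted p = 0.0306 and 0.0214), and Hsd3b1, an enzyme shared with the Leydig list, fell by 0.32 (0.0457). Npc2 and Fdx1 passed with the trend removed, while Npc1 stood at 0.13 (adjusted p = 0.408), Por at -0.06 (0.674) and Hsd3b1 at -0.21 (0.215). With 1 library left out, Npc2 passed in 6 of 6 fits, and Npc1, Por, Fdx1 and Hsd3b1 each passed in 2 of 6. The family of Akr1b and Gramd genes had 0 of 7 genes higher (0 also at an unadjusted p under 0.05) and 1 lower, Akr1a1, by 0.44 (adjusted p = 0.00826), which stood at -0.03 (adjusted p = 0.853) with the trend removed.

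**Figure D4:**
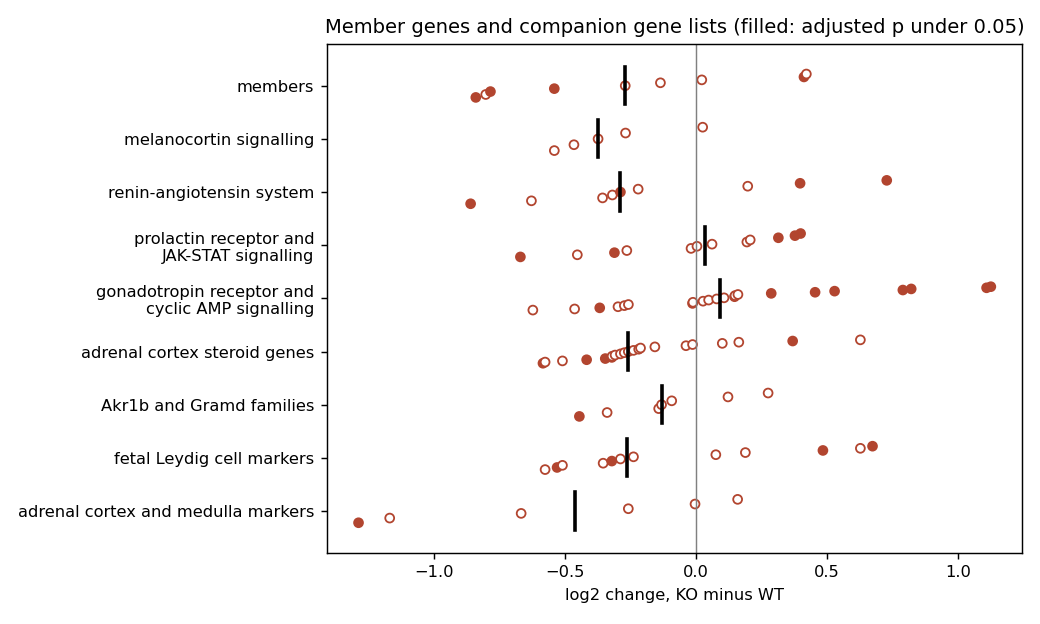
Log2 change (KO minus WT, horizontal axis) of each gene tested in the list of 9 genes (members) and in 8 companion lists; filled points have an adjusted p under 0.05 and black bars are list medians. Members have a median of -0.27, the companion lists medians between -0.46 (adrenal cortex and medulla markers) and 0.09 (the cyclic AMP list).

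Markers of the cells that could carry these genes were measured beside them. Of 12 fetal Leydig cell markers, 2 rose (Pdgfra and Vcam1) and 2 fell (Gsta3 and Hsd3b1), and their summed value was 73358 to 95911 in KO and 89509 to 129870 in WT. Cyp11a1, the first enzyme of steroid synthesis, and Star, the cholesterol carrier that feeds it, both named after their values were seen, had log2 changes of -0.58 (adjusted p = 0.059) and -0.29 (adjusted p = 0.223). The mean log2 value of these 12 markers was 11.39 to 11.61 in KO and 11.53 to 11.62 in WT. Centring each library on that mean, a setting chosen after seeing the data, therefore shifts the log2 change of every gene alike and by little. The calls moved more: over all genes 2615 were higher and 1597 lower, against 2609 and 2571 without centring. This setting does not bear on the share of Leydig cells, whose part in the results was not tested. Gramd1b passed in that setting (log2 0.49, adjusted p = 0.033).

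Of 6 markers of adrenal cortex and medulla tested, 0 rose (0 also at an unadjusted p under 0.05) and 1 fell, Pnmt, the enzyme that makes adrenaline, with 36.3 ± 12.8 in KO and 88.3 ± 23.7 in WT (SD, n = 3 each; limma adjusted p = 0.0107, and 0.0547 without WT library 4). The list of 8 genes in the table summed to 651 to 765 in KO and 781 to 1072 in WT, with Dbh, an enzyme of noradrenaline synthesis, at 15.5 or less in every library, and the part of adrenal tissue in the results was not tested. Muscle and pericyte markers fell in 3 of 7 genes (Tagln, Des and Acta2), and their sum was 9193 to 10317 in KO and 12606 to 27295 in WT, highest in WT library 1. Macrophage markers fell in 2 of 6 genes (Csf1r and Fcgr1), with sums of 820.2 to 930 in KO and 995 to 1292 in WT. Endothelial markers had 1 gene higher (Kdr) and 1 lower (Esam) of 6, and germ cell (Ddx4) and mesonephros (Lhx1) markers had 1 gene higher of 6 each. Sertoli cell markers had 1 lower (Clu) of 7, and of 5 red blood cell markers 0 passed limma's test and 1 had an unadjusted p under 0.05. With the length and GC trend removed, Des, Csf1r, Kdr and Lhx1 passed limma's test. Pnmt (adjusted p = 0.154), Tagln (0.0581), Acta2 (0.071), Fcgr1 (0.134), Esam (0.821), Ddx4 (0.217) and Clu (0.114) then did not. With 1 library left out, Esam and Ddx4 each passed in 2 of 6 fits, Csf1r in 3 and Fcgr1 in 1. The part of these cells in the results was not tested.

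Several genes elsewhere in the table followed the 9 genes closely across the 6 libraries. By Pearson r of log2 values, the nearest were Acat1 and Psmc2 for Akr1b7 (both 0.997), Mvk and Rnf40 for Ren1 (0.998 and 0.996), Tubb6 and Dnd1 for Cyp21a1 (both 0.996), and Gm11627 and P4htm for Mrap (0.992 and 0.991). For Mc2r they were Gpt2 and Nrip2 (both 0.992), for Prlr Tmed8 and Alg13 (0.996 and 0.995), for Gramd1b Ogdh and Mast2 (0.989 and 0.988), for Lhcgr Mc4r and Spnb1 (0.974 and 0.973), and for Agtr1a Cst11 and Dnajc25 (0.981 and 0.973). These are values over 6 libraries that share their normalisation, given as a description. Each was picked as among the highest of 15116 genes tested, so its size alone does not show a shared behaviour.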

How the data were processed

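Expression came from RNA sequencing of 3 KO and 3 WT libraries. The authors deposited a signal per gene, upper-quartile normalised pseudo-counts that are fractional and are not reads, per the file headers. Per the submitters' processing notes, CASAVA 1.8.2, edgeR 2.6.2 and the build mm9 were used; what each tool did, and which annotation was used, is not stated in the labels. Each library had an upper quartile of 1484 or 1485. Whole reads were not recovered, so depth is unknown, and neither counting intervals nor count models were used. No pair of libraries held identical columns.

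Tests ran on log2(value + 1) in limma 3.58.1 under R 4.3.3 (moderated test with a mean-dependent prior, two-sided), on 15116 genes with at least 10 in at least 3 libraries. Fold changes on this scale understate the change of low genes. P-values were adjusted over all genes tested (Benjamini-Hochberg, threshold 0.05). An exact permutation test of 3 against 3 libraries cannot go below p = 0.1. P-values measure the spread between libraries taken as separate embryos.

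The trend on length and GC content was removed per library with natural splines of 4 degrees of freedom, for 14449 genes (95.6%) whose longest protein-coding transcript in GENCODE vM21 was matched by NCBI gene identifier; coordinates of that build were not used. Other alternatives were pseudocounts, filters, scalings, priors, library weights and each library left out. Genes named were the 9 genes, both targeted genes, up to 4 genes past the threshold per list by smallest adjusted p (up to 2 by mean value where none passed) and the 2 genes most like each of the 9; exceptions are marked. The 9 genes and the lists were chosen with earlier results of these data known. Plots used matplotlib 3.10.9 (Python 3.11.15).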

Additional observations from a re-analysis of the deposited data

How the results depend on the processing

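No paired analysis was possible because the labels do not say which embryos shared a litter, and the KO and WT libraries share no replicate number. Of the 9 genes, 1 was higher and 3 lower in KO with pseudocounts of 0.5, 5 or 10, no filter, a filter at 50, or median of ratios scaling. The number higher was 2 with equal totals and 2 with centring on the Leydig markers, and 0 with quantile normalisation (1 at an unadjusted p under 0.05 in limma) and 0 without the mean-dependent prior (1 unadjusted). The number lower was 5 with library weights, Mc2r and Cyp21a1 included. With the length and GC trend removed, with or without WT library 1, 0 passed limma's test either way (0 higher unadjusted; 2 lower unadjusted with that library and 1 without it). With 1 library left out, 0 to 1 were higher and 1 to 4 lower. Over all genes, 877 were higher and 959 lower with the trend removed, against 2609 and 2571, and equal totals gave 3507 and 1687. The counts were 1635 and 1397 without WT library 4, and the number lower was 1597 with centring on the Leydig markers. Without WT library 1 and with the trend removed they were 842 and 881.

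Signs turned as follows, and the cause was not tested. Lhcgr was at -0.033 with quantile normalisation, -0.13 with library weights and -0.53 with the trend removed (-0.36 also without WT library 1), and between -0.088 and 0.17 with 1 library left out. Prlr was at -0.26 and -0.22 with the trend removed, with and without WT library 1. Agtr1a lay between -0.39 and 0.16 with 1 library left out. With the trend removed, with and without WT library 1, Creb1 was at -0.19 and -0.25, Jak2 at -0.0041 and -0.015 and Pomc at 0.077 and 0.086, while Lnpep was at -0.020 without that library and Cyp11b1 at 0.26. Mc4r was at -0.24 with library weights and -0.10 with the trend removed, and between -0.24 and 0.27 with 1 library left out. The ranges with 1 library left out were -0.68 to 0.37 for Cyp11b1, -0.074 to 1.10 for Hba-x and -0.20 to 0.78 for Hbb-y. Of 32 other genes named as changed, 13 passed in the same direction with the trend removed and 17 with each library left out in turn. Depth is unknown, so what counting error adds to the lowest genes, Agtr1a, Cyp21a1 and Ren1, cannot be given.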
